A study of Mus musculus with 12 samples.

Results

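The 34 genes described here encode the enzymes that build cholesterol and fatty acids and the proteins that regulate them, measured in mouse kidney. They were taken from a list of symbols. Each gene was represented by the probe set that named that gene alone and was brightest on average over the 12 arrays, and all 34 of 34 were found among 19934 measured genes. By role, 17 belong to the sterol branch, 12 to the fatty acid branch and 5 are regulators or a sterol carrier.

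Both branches start from acetyl-CoA in the cytosol. The sterol branch joins acetyl units into mevalonate, isoprenoids, squalene and lanosterol, and trims lanosterol to cholesterol. In the fatty acid branch acetyl-CoA is carboxylated to malonyl-CoA, joined into palmitate by fatty acid synthase, and then lengthened by elongases and given double bonds by desaturases. SREBP-2, the product of Srebf2, is known mainly as an activator of sterol genes, and SREBP-1c, a product of Srebf1, mainly as an activator of fatty acid genes. INSIG proteins hold the SREBPs in the endoplasmic reticulum when sterols are plentiful, and Insig1 is itself an SREBP target. In the kidney much of the energy of proximal tubule cells comes from burning fatty acids, and cholesterol is needed for their large membrane area.

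RNA of whole kidneys from 12 female C57BL/6 mice, 4 per genotype and 1 array per mouse, was hybridised to a mouse gene array, to follow the kidney disease of methylmalonic acidaemia. Per the series' design text, females were chosen since fewer males lived through the diet, so the animals are survivors of it. Every mouse had eaten a high-protein diet for 2 months, so no group on another diet enters these comparisons, and ages are not given in the sources used here. The mutants were Mut -/- ;TgINS-Alb-Mut, lacking the mitochondrial enzyme methylmalonyl-CoA mutase apart from a transgene that, by its name, carries Mut under the albumin promoter, which is active chiefly in hepatocytes. The other mice were heterozygous (Mut +/-) or wild type (Mut +/+). The labels name the transgene in the mutants alone, so its presence and the loss of Mut cannot be told apart.

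All levels are the deposited log2 values, on which a difference of 1 is a doubling, and levels of different probe sets are not compared. Mmut, the current symbol of Mut, stood at 8.35 ± 0.12 in the mutants, 9.92 ± 0.04 in the heterozygotes and 10.53 ± 0.06 in the wild type (mean ± SD, n = 4 each). The 10 proximal tubule markers averaged 11.37 to 11.79 in the mutants and 11.58 to 11.63 in the other mice. Of these markers Cubn alone was lower in the mutants than in the wild type at an adjusted p under 0.05 (1.28-fold, adjusted p = 0.00401, limma). Mutant replicate 3 stood apart. Its 9 measured adrenal cortex markers averaged 9.49, against 5.62 to 5.93 on the other 11 arrays, with Star at 11.99 against 6.64 to 6.91 and Cyp11b1 at 12.65 against at most 6.58. Its 6 adrenal medulla markers averaged 8.45, against 7.07 to 7.27 elsewhere, although 1 of them, Slc18a1, was lowest on that array (9.66, against 10.20 to 11.12). The 8 measured adipocyte markers averaged 8.54 and 8.24 in wild type replicates 1 and 4 and 8.17 in mutant replicate 2. On the other 9 arrays they averaged 7.37 to 7.84. The 5 markers of the distal convoluted and connecting tubule averaged 9.21 to 10.25 in the mutants and 10.39 to 10.59 in the other mice, and 4 of them were lower in the mutants than in the wild type at an adjusted p under 0.05. In 3 other lists every mutant also averaged below every other mouse. The 7 measured hepatocyte markers averaged 7.98 to 8.33 in the mutants against 8.53 to 8.87 (Alb 3.2-fold and Ttr 4.93-fold lower, the only 2 called). Apoa2 was also below the wild type, by -0.18, but Apoa1, Fgb, Tat and Cyp2e1 were above it (log2 differences 0.24, 0.08, 0.005 and 0.30). The 4 measured podocyte markers averaged 8.25 to 8.45 against 8.49 to 8.61, with 2 lower. The 5 endothelial markers averaged 8.87 to 9.375 against 9.376 to 9.71, with 2 lower. The means of these lists and of the fatty acid genes described below were low on the same 4 arrays. The part of these lists in the results was not tested.

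The stretch just upstream of these genes was searched for short sequence elements. RefSeq windows (assembly GRCm38.p6) of the 250 bases before a gene start were at hand for 27 of the 34 genes, 35 windows in all. The letters CCAAT, searched on both strands, occurred in 24 of the 35 windows (68.6%), against 33.8% of 32851 windows of the same length. By branch they occurred in 14 of 17 sterol windows (82.4%), 5 of 8 regulator windows (62.5%) and 5 of 10 fatty acid windows. Some genes have several windows, and counted by gene at least 1 window held them for 14 of 14 sterol genes, 4 of 4 regulators and 5 of 9 fatty acid genes. A gene with several windows has more chances in this count. The share over all genes was not counted this way, so these counts cannot be set against the 33.8% of windows. The sterol regulatory element TCACNCCAC, bound by SREBPs, occurred in 1 window, that of Hmgcs1, against 1.05% of all windows. The E-box TCACGTGA occurred in none of the 35 and in 0.785% of all. Such matches describe the letters of these windows only, and binding was not measured. The windows of 4 genes follow, 1 for each pattern described below: a sterol gene that was not called in either direction, a sterol gene that fell, a fatty acid gene that fell and a regulator that split the mutants. Capitals mark CCAAT on either strand (ATTGG on the printed strand when it lies on the other) and, in Hmgcs1, the sterol regulatory element.
Hmgcs1, chr13:119690101-119690350, plus strand: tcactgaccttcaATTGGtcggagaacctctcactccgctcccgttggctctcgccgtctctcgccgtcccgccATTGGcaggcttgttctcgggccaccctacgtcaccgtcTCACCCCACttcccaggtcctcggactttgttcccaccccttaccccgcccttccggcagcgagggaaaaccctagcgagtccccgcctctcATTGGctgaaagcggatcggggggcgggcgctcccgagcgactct
Cyp51, chr5:4104698-4104947, minus strand: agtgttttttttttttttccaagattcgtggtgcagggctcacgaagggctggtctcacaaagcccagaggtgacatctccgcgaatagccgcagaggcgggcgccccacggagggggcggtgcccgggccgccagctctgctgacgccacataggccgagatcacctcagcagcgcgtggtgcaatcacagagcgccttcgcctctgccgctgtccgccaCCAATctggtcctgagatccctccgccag
Fasn, chr11:120824548-120824797, minus strand: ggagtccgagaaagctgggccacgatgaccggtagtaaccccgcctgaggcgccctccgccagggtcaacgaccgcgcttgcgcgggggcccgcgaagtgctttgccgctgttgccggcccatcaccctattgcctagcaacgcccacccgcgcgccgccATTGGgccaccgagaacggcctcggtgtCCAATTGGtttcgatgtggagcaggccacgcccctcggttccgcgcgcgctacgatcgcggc
Insig1, chr5:28071162-28071411, plus strand: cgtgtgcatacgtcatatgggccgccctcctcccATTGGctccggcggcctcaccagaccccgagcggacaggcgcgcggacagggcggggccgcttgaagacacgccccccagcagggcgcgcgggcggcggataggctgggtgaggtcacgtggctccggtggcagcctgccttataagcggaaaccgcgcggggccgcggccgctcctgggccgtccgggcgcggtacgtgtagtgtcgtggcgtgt
The element of Hmgcs1 began 137 bases before the start, between CCAAT letters at 176 and 45. Cyp51 had a single CCAAT 29 bases before the start and Insig1 a single one at 216. Fasn had 3, beginning at 90, 62 and 59 bases, of which the last 2 overlap on opposite strands.

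The first comparison asked how kidneys without Mut differed from wild-type kidneys. Of the 34 genes, 7 fell in the mutants and none rose, at an adjusted p under 0.05 in limma with Benjamini-Hochberg adjustment over all 19934 genes. Such a gene is called here. Over all genes 9.66% were called, 6.69% lower and 2.96% higher. At an unadjusted p under 0.05, 14 of the 34 were lower and 1 higher, against 15.2% and 9.25% of all genes. In the fatty acid branch 5 of 12 genes fell, 11 of 12 lay below the wild type (48.6% of all genes did) and the median log2 difference was -0.22. The genes that fell there were Scd1, Fasn, Elovl6, Scd2 and Me1. In the sterol branch 1 of 17 genes fell, Cyp51, a share near that of all genes, and the median was 0.027. The median over all genes was 0.0044. The remaining gene that fell was the regulator Insig2. In 7 of the 34 every mutant lay below every wild-type mouse, against 9.4% of all genes, and in 0 above, against 5.35%. These were the called genes other than Insig2, and Acacb, with nearly no gap for Me1 and Acacb. In bulk kidney RNA, fewer cells of a type and less RNA per cell cannot be told apart.

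**Figure D1:**
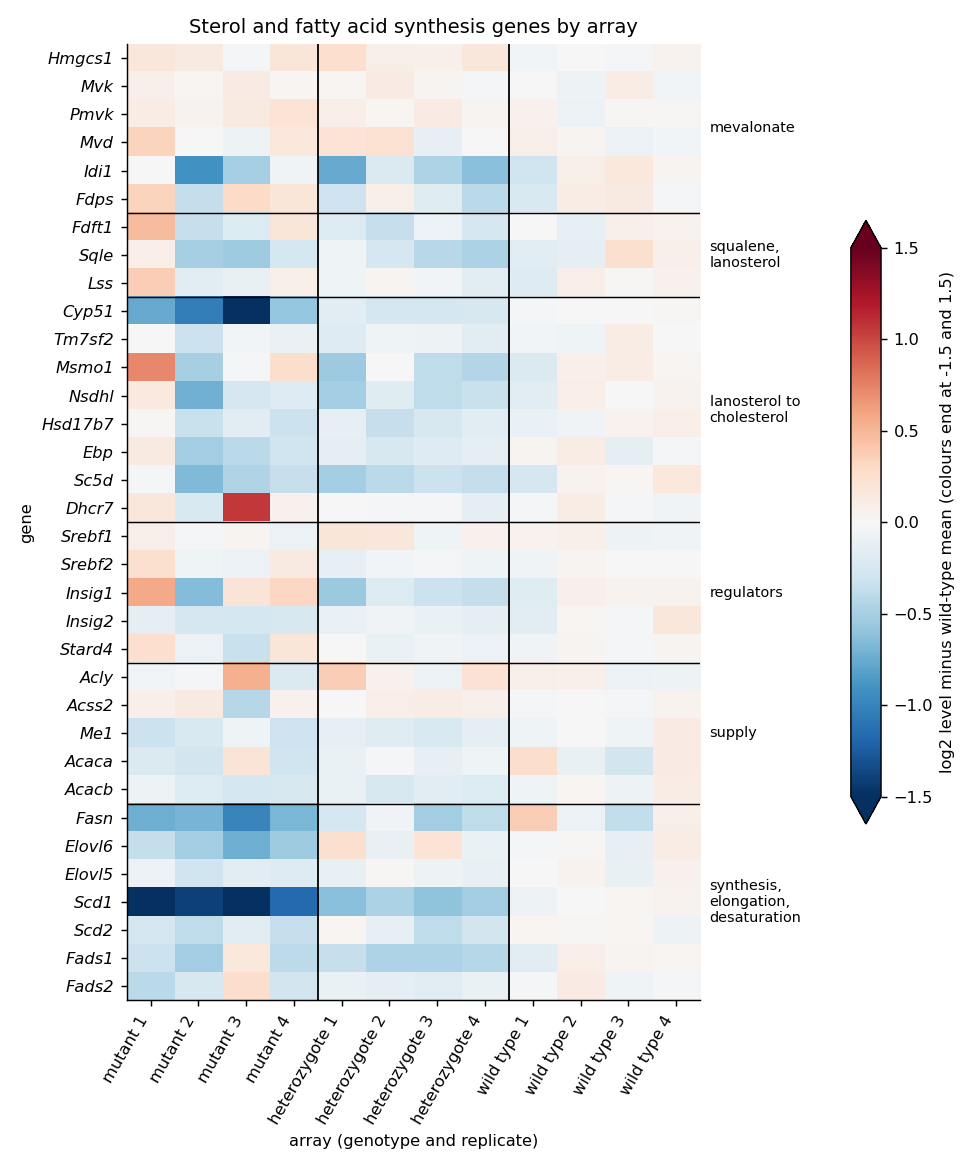
Level of each of the 34 genes (rows, grouped by role) on each of the 12 arrays (columns), as log2 level minus the wild-type mean of that gene, with blue lower and red higher and colours ending at -1.5 and 1.5. Scd1, Fasn, Elovl6 and Cyp51 are blue on all 4 mutant arrays, while many sterol genes are red in mutant replicate 1 and blue in mutant replicate 2.

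The same 34 genes were read without mutant replicate 2, which held the lowest level of 10 of them. Then 4 fell (Scd1, Fasn, Elovl6 and Cyp51) and 1 rose (Insig1), against 5.52% of all genes lower and 2.62% higher. Without mutant replicate 3, the array with adrenal markers, 8 fell and none rose, against 5.27% lower of all genes. These were Scd1, Fasn, Elovl6, Cyp51, Scd2, Me1, Fads1 and Fads2. Without mutant replicates 2 and 3 together 7 fell and 2 rose (Insig1 and Stard4), against 3.34% of all genes lower and 2.05% higher. Without mutant replicate 1 the count was 11 (6.68% lower of all genes), and without mutant replicate 4 it was 4 (6.53%). Without wild type replicate 2 it was 4 (3.65%), and without wild type replicate 4 it was 3 (3.47%). Under quantile normalisation of the deposited values 4 fell (5.51% of all genes) and 1 rose (4.16% of all genes), the latter Hmgcs1 by 0.18 (adjusted p = 0.0323, limma). Over all genes the called genes that were higher made up 30.7% as deposited and 43.0% after quantile normalisation.

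Scd1 encodes stearoyl-CoA desaturase, which puts the first double bond into stearate and palmitate. Its level in mutant replicates 1 to 4 was 11.46, 11.78, 10.97 and 12.03. In the heterozygotes it was 12.56, 12.72, 12.59 and 12.67, and in the wild type 13.11, 13.19, 13.21 and 13.24. The 3 genotypes did not overlap, with every mutant lowest and every wild-type mouse highest. Scd1 was 3.09-fold lower in the mutants than in the wild type (log2 difference -1.63, SE 0.16, limma adjusted p = 0.000118) and 2.1-fold lower than in the heterozygotes (adjusted p = 0.00372). A two-sided exact permutation test over the arrays gave p = 0.0286 against the wild type, the smallest that 4 against 4 arrays allow. The call against the wild type held in all 22 alternatives tried, with adjusted p from 1.26e-05 to 0.00407. Apart from Scd1, the only member with the same order and no overlap was Cyp51, 2 of 34 against 0.637% of all genes.

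Fasn encodes fatty acid synthase, which makes palmitate. The mutants stood at 8.95, 8.99, 8.70 and 9.01, the heterozygotes at 9.42, 9.64, 9.16 and 9.31, and the wild type at 10.06, 9.60, 9.31 and 9.78. All 4 mutants lay below all 8 other mice, and the other genotypes overlapped. Fasn was 1.71-fold lower than in the wild type (log2 difference -0.78, SE 0.139, adjusted p = 0.00432, limma; exact permutation p = 0.0286). Against the heterozygotes it was 1.39-fold lower without reaching the threshold (adjusted p = 0.0976).

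Elovl6 encodes the elongase that lengthens palmitate to stearate. Its levels were 10.26, 10.09, 9.89 and 10.08 in the mutants, 10.86, 10.51, 10.82 and 10.52 in the heterozygotes, and 10.61, 10.64, 10.50 and 10.73 in the wild type. Every mutant was below every other mouse, while heterozygotes and wild type overlapped. Elovl6 was 1.45-fold lower than in the wild type (log2 difference -0.54, SE 0.0954, adjusted p = 0.00418, limma; exact permutation p = 0.0286). It was 1.51-fold lower than in the heterozygotes (adjusted p = 0.00622), and Elovl6 and Scd1 were the only members called in that comparison. The related elongase gene Elovl5, which acts on polyunsaturated chains, stood at 10.19 to 10.41 in the mutants and 10.39 to 10.56 in the wild type, and its difference of -0.19 was not called (adjusted p = 0.0566).

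The adipocyte markers moved with Fasn within the wild type. The order of the wild-type arrays, from high to low, was replicates 1, 4, 2 and 3 for both the adipocyte mean and Fasn. In the other genotypes the orders did not match. The heterozygotes were ordered 3, 1, 4 and 2 for the adipocyte mean but 2, 1, 4 and 3 for Fasn. The mutants were ordered 2, 1, 4 and 3 for the adipocyte mean but 4, 2, 1 and 3 for Fasn. Of the other fatty acid genes, Acaca alone had the wild-type order 1, 4, 2 and 3, while Scd1 ran 4, 3, 2 and 1. For the adipocyte list 0 of 8 genes were called (2 lower at an unadjusted p under 0.05), and their median log2 difference was -0.28. Without wild type replicates 1 and 4 only Scd1 among the 34 was called, against 2.33% of all genes lower. The differences of the lost genes kept their sign: Fasn was 1.46-fold lower (adjusted p = 0.0524), Elovl6 1.4-fold lower (0.0596) and Cyp51 2.31-fold lower, as with all arrays (0.12). With mutant replicate 3 also left out, 4 genes were called lower (Scd1, Cyp51, Fads1 and Fads2, against 2.19% of all genes), and Fasn (1.39-fold lower) and Elovl6 (1.34-fold lower) had adjusted p of 0.072 and 0.0838. Both settings leave 2 wild-type arrays, and the part of adipocyte RNA in these results was not tested.

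**Figure D2:**
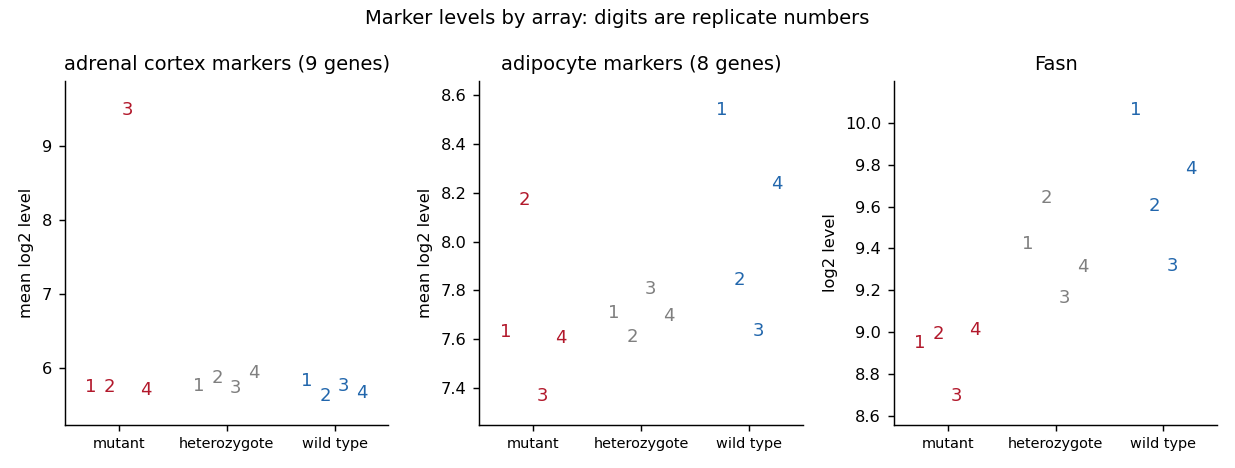
Mean log2 level of 9 adrenal cortex markers (left) and of 8 adipocyte markers (middle), and the log2 level of Fasn (right), on each array, with digits giving replicate numbers and colours the genotype. Mutant replicate 3 stands alone at 9.49 for the adrenal markers, and wild type replicates 1 and 4 are the highest wild-type arrays both for the adipocyte markers and for Fasn.

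Scd2 and Me1 fell by smaller amounts. Scd2, the second stearoyl-CoA desaturase gene, stood at 10.55, 10.42, 10.65 and 10.45 in the mutants, 10.84, 10.68, 10.43 and 10.53 in the heterozygotes, and 10.83, 10.82, 10.83 and 10.73 in the wild type. Me1, whose enzyme makes cytosolic NADPH, stood at 10.69, 10.78, 10.94 and 10.69 in the mutants, 10.88, 10.82, 10.78 and 10.87 in the heterozygotes, and 10.94, 11.01, 10.94 and 11.13 in the wild type. In both genes the mutants lay below the wild type without overlap (exact permutation p = 0.0286 for each), and the heterozygotes overlapped the mutants. For Me1 this was nearly a tie, with the highest mutant at 10.9431 and the lowest wild-type array at 10.9434. Scd2 was 1.22-fold lower than in the wild type (log2 difference -0.29, SE 0.0801, adjusted p = 0.0383, limma). Me1 was 1.17-fold lower (log2 difference -0.23, SE 0.0641, adjusted p = 0.0375, limma), and its second probe set was lower by a log2 difference of -0.33 (adjusted p = 0.0143 over all probe sets). Both calls were close to the threshold. Scd2 lost its call when mutant replicate 1, 2 or 4 or any single wild-type array was left out (adjusted p up to 0.0937). Me1 lost it when mutant replicate 1, 2 or 4, heterozygote replicate 4, or wild type replicate 2, 3 or 4 was left out (adjusted p up to 0.121), and without heterozygote replicate 1 it stood at the threshold (0.05 when rounded).

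**Figure D3:**
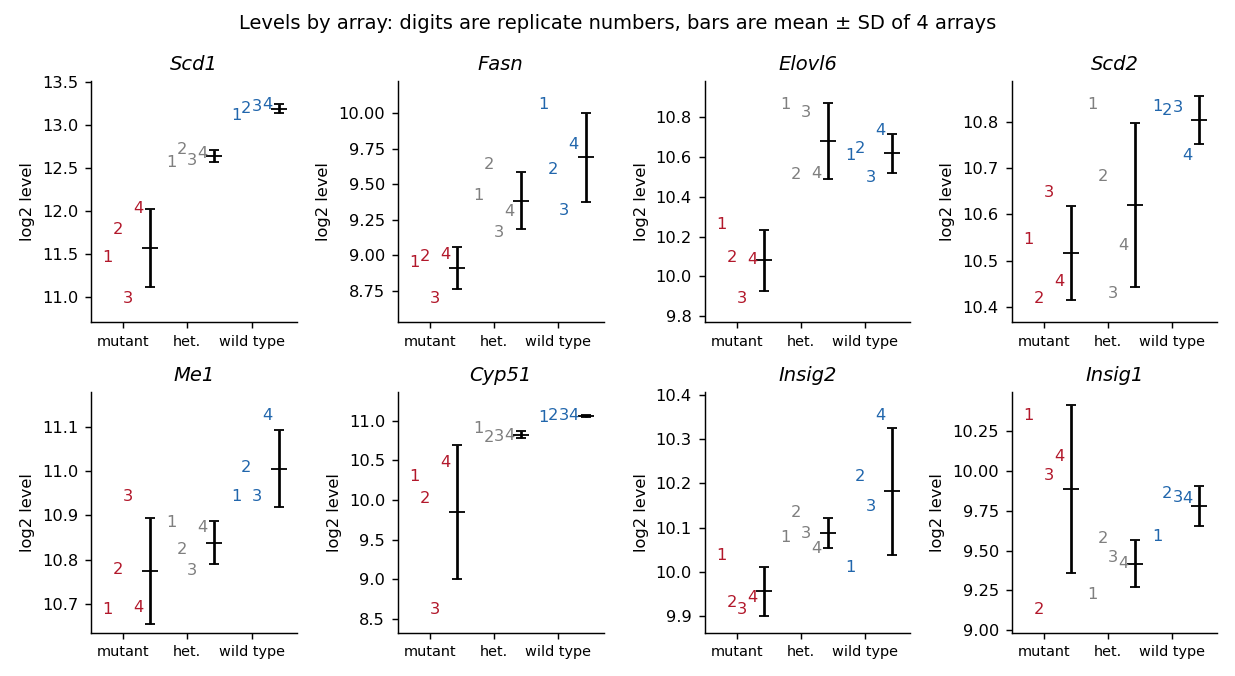
Log2 levels of the 7 genes called in mutant against wild type and of Insig1 on each array, with digits giving replicate numbers, and bars giving mean ± SD of 4 arrays; het. is heterozygote and each panel has its own axis. Scd1 falls in steps from wild type to heterozygote to mutant, Elovl6 is low in the mutants alone, and Insig1 in mutant replicate 2 is 9.13 against 9.97 to 10.35 in the other mutants.

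The desaturase genes Fads1 and Fads2, whose products make polyunsaturated fatty acids, were split by mutant replicate 3. Fads1 stood at 10.27, 10.07, 10.75 and 10.20 in the mutants, 10.13 to 10.24 in the heterozygotes, and 10.43 to 10.69 in the wild type. Fads2 stood at 11.01, 11.16, 11.67 and 11.13 in the mutants, 11.23 to 11.31 in the heterozygotes, and 11.34 to 11.53 in the wild type. Replicate 3 held the highest value of all 12 arrays in both genes, and the other 3 mutants lay below every wild-type mouse. With all mutants neither gene was called (adjusted p = 0.159 for Fads1 and 0.403 for Fads2). Without replicate 3, Fads1 was 1.33-fold lower (adjusted p = 0.00373, limma) and Fads2 1.24-fold lower (adjusted p = 0.00791, limma). The part of the adrenal signal of that array in these values was not tested.

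Of the other suppliers of the fatty acid branch, none was called. Acly, whose enzyme splits citrate to acetyl-CoA, stood at 9.83 in mutant replicate 3 and 9.08 to 9.26 in the other mutants, against 9.20 to 9.37 in the wild type. Acss2, which makes acetyl-CoA from acetate, showed the opposite on that array, at 9.58 against 10.07 to 10.14 in the other mutants. The acetyl-CoA carboxylase genes Acaca and Acacb differed by -0.15 and -0.20 from the wild type (adjusted p = 0.491 and 0.0507). For Acacb, whose enzyme sits at mitochondria and there makes the malonyl-CoA that limits fatty acid entry, the mutants stood at 8.92, 8.94, 8.98 and 9.108, and the lowest wild-type array at 9.110.

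Cyp51 encodes lanosterol demethylase, the first step after lanosterol. Its mutants stood at 10.29, 10.01, 8.62 and 10.48, the heterozygotes at 10.89, 10.79, 10.79 and 10.82, and the wild type at 11.04, 11.06, 11.06 and 11.07. The heterozygotes and wild type hardly varied, the mutants spread over 1.86, and the genotypes did not overlap. Cyp51 was 2.31-fold lower than in the wild type (log2 difference -1.21, SE 0.285, adjusted p = 0.018, limma; exact permutation p = 0.0286). Against the heterozygotes it was 1.96-fold lower and not called (adjusted p = 0.0961). Without mutant replicate 3 Cyp51 was 1.73-fold lower than in the wild type (adjusted p = 0.000192) and 1.48-fold lower than in the heterozygotes (adjusted p = 0.00411). It was also called against the heterozygotes without mutant replicate 4, and its call against the wild type was lost when wild type replicate 4 was left out (adjusted p = 0.0528), when only the 2 groups were fitted (0.0579), and with a robust prior with a trend (0.0532).

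Of the other 16 sterol genes limma called 0 in either direction, with 4 lower and 1 higher at an unadjusted p under 0.05. Of these 16, 7 lay below the wild type, with a median log2 difference of 0.036. The mevalonate steps had a median of 0.11, with Hmgcs1, the synthase that feeds the pathway, at 11.06, 11.03, 10.86 and 11.07 in the mutants against 10.85 to 10.94 in the wild type. The 8 genes from lanosterol to cholesterol had a median of -0.23, with 6 below the wild type. Among them Sc5d, a late desaturase of the sterol ring, came closest to a call (1.29-fold lower, adjusted p = 0.0586). Dhcr7, whose enzyme makes the last reduction in one route to cholesterol, stood at 9.30 in mutant replicate 3 and 8.01 to 8.41 in the other mutants, against 8.19 to 8.35 in the wild type.

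The mutants differed most from each other in the sterol branch. The median range among the 4 mutants was 0.64 over the 17 sterol genes, against 0.21 in the heterozygotes and 0.20 in the wild type. Over all genes the medians were 0.22, 0.17 and 0.19. The mutants were the most spread genotype in 15 of 17 sterol genes and 8 of 12 fatty acid genes, and in 48.3% of all genes. Among the mutants, replicate 1 was the highest in 12 of 17 sterol genes and replicate 2 the lowest in 13 of 17. Msmo1, which removes methyl groups after Cyp51, showed it plainly, at 9.30, 8.08, 8.55 and 8.84 in the mutants against 8.36 to 8.69 in the wild type. Idi1, the isomerase of isoprenoid units, stood at 9.37, 8.47, 8.87 and 9.32, against 9.08 to 9.54. Over all 12 arrays mutant replicate 1 held the highest value of 10 of the 34 genes (8.46% of all genes), and mutant replicate 2 the lowest of 10 (7.51% of all genes).

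The reading of the sterol branch therefore turned on which mutant was left out. Without mutant replicate 1 its median against the wild type was -0.12 and 5 of 17 genes were called lower (Cyp51, Sqle, Hsd17b7, Ebp and Sc5d), where 6.68% of all genes were lower. Without mutant replicate 2 the median was 0.073 and Cyp51 alone was called lower. Against the heterozygotes the sterol median was 0.030 with all mutants and 0.077 without replicate 2, when Fdps, which makes farnesyl diphosphate, was called 1.38-fold higher (adjusted p = 0.0468, limma). Mutant replicate 2 had the highest mean of 5 macrophage markers, 9.10, and an adipocyte mean of 8.17, and their part in its sterol levels was not tested.

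**Figure D4:**
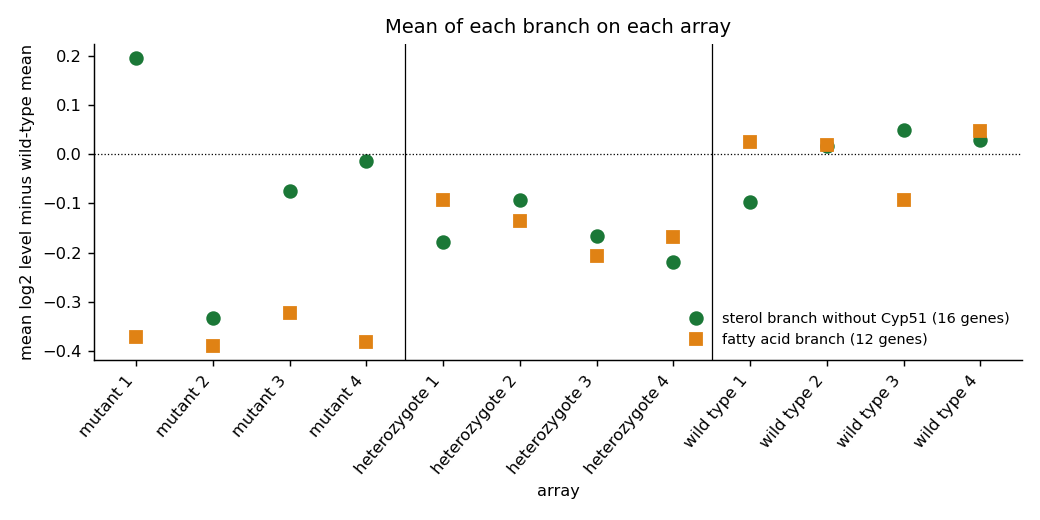
Mean log2 level minus the wild-type mean, for 16 sterol genes without Cyp51 (circles) and 12 fatty acid genes with Scd1 (squares), on each array. The fatty acid mean lies between -0.39 and -0.32 in all 4 mutants, while the sterol mean runs from -0.33 in mutant replicate 2 to 0.20 in mutant replicate 1. The means are not trimmed alike, as each branch has 1 gene with a large fall and only Cyp51 is left out. With Cyp51 kept, the sterol mean is -0.38 in mutant replicate 2 and 0.14 in mutant replicate 1. Without Scd1, the fatty acid means of mutants and heterozygotes overlap.

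Gene by gene, the median range among the mutants in the fatty acid branch was 0.43, against 0.13 in the heterozygotes, 0.18 in the wild type and 0.22 for the mutants over all genes. On mutant replicate 3 some genes of this branch were the highest of all arrays (Acly, Fads1 and Fads2). Others were the lowest (Scd1, Fasn, Elovl6, Acss2 and Acacb), and highest and lowest genes offset each other in a mean. That array held the highest value of 19.2% of all genes and the lowest of 16%. The branch mean relative to the wild type was -0.37, -0.39, -0.32 and -0.38 in mutant replicates 1 to 4, between -0.21 and -0.09 in the heterozygotes, and between -0.09 and 0.05 in the wild type. On this mean all mutants lay below all other mice, and the heterozygotes touched the lowest wild-type array. It includes Scd1, the gene with the largest difference, and the full separation depended on Scd1. With Scd1 taken out of the mean, mutant replicate 3 lay above heterozygote replicate 3. The other mutants still lay below all heterozygous and wild-type mice. The 7 genes of synthesis, elongation and desaturation stood at -0.58 to -0.51 in the mutants and -0.29 to 0.03 in the other mice. The 5 supply genes overlapped, at -0.20 to -0.0049 in the mutants, -0.096 to 0.011 in the heterozygotes and -0.11 to 0.069 in the wild type. The mean of all 17 sterol genes was 0.14, -0.38, -0.21 and -0.047 in mutant replicates 1 to 4. Without Cyp51 it was 0.20, -0.33, -0.07 and -0.01 in the mutants, -0.22 to -0.09 in the heterozygotes, and -0.10 to 0.05 in the wild type, and here the mutants overlapped both other groups. The difference between the branches was not tested.

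Among the regulators, neither SREBP gene nor Stard4 was called. Srebf1 stood at 8.18 to 8.36 in the mutants, 8.21 to 8.45 in the heterozygotes and 8.19 to 8.35 in the wild type (mutant against wild type, log2 difference 0.0041, SE 0.0641, adjusted p = 0.979, limma). Srebf2 stood at 9.08 to 9.41, 9.04 to 9.15 and 9.12 to 9.21 in the same order (log2 difference 0.06, SE 0.0674, adjusted p = 0.668). The sterol carrier gene Stard4 differed by -0.0003 (adjusted p = 0.999), with mutants from 8.03 to 8.62 and wild type from 8.33 to 8.41. These probe sets measure whole transcripts and do not separate the 2 proteins that Srebf1 encodes.

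Insig2 fell slightly and Insig1 split the mutants. Insig2 stood at 10.04, 9.93, 9.91 and 9.94 in the mutants, 10.08, 10.13, 10.09 and 10.05 in the heterozygotes, and 10.01, 10.22, 10.15 and 10.35 in the wild type. Mutants and wild type overlapped through 1 array of each. It was 1.17-fold lower than in the wild type (log2 difference -0.23, SE 0.0645, adjusted p = 0.0422, limma; exact permutation p = 0.0571). That call held in 2 of 12 fits that left out an array, those without mutant replicate 1 and without wild type replicate 1, and in the other 10 the adjusted p was up to 0.122. Insig1 stood at 10.35, 9.13, 9.97 and 10.09 in the mutants, 9.22, 9.58, 9.46 and 9.42 in the heterozygotes, and 9.59, 9.86, 9.83 and 9.83 in the wild type. Mutant replicate 2 was the lowest of all 12 arrays and the other 3 mutants were the highest. With all mutants Insig1 was not called (adjusted p = 0.79 against the wild type). Without replicate 2 it was 1.28-fold higher than in the wild type (adjusted p = 0.0491, limma) and 1.65-fold higher than in the heterozygotes (adjusted p = 0.00366, limma).

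The second comparison set the mutants against the heterozygotes, and it shares the mutant arrays with the first. Of the 34 genes 2 fell, Scd1 and Elovl6, and none rose, against 2.54% of all genes called, 1.46% lower and 1.07% higher. At an unadjusted p under 0.05, 2 were higher, against 6.3% of all genes. A further 3 genes had all mutants below all heterozygotes without a call: Cyp51, Fasn and Insig2 (adjusted p = 0.357 for Insig2). That made 5 of 34 without overlap on the lower side, against 5.65% of all genes, and 0 on the higher side, against 4.04%. The fatty acid median was -0.090 and the sterol median 0.030, with -0.0075 over all genes. Without mutant replicate 2 the same 2 fell and 2 rose, Insig1 and Fdps, against 1.47% of all genes lower and 1.18% higher.

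**Figure D5:**
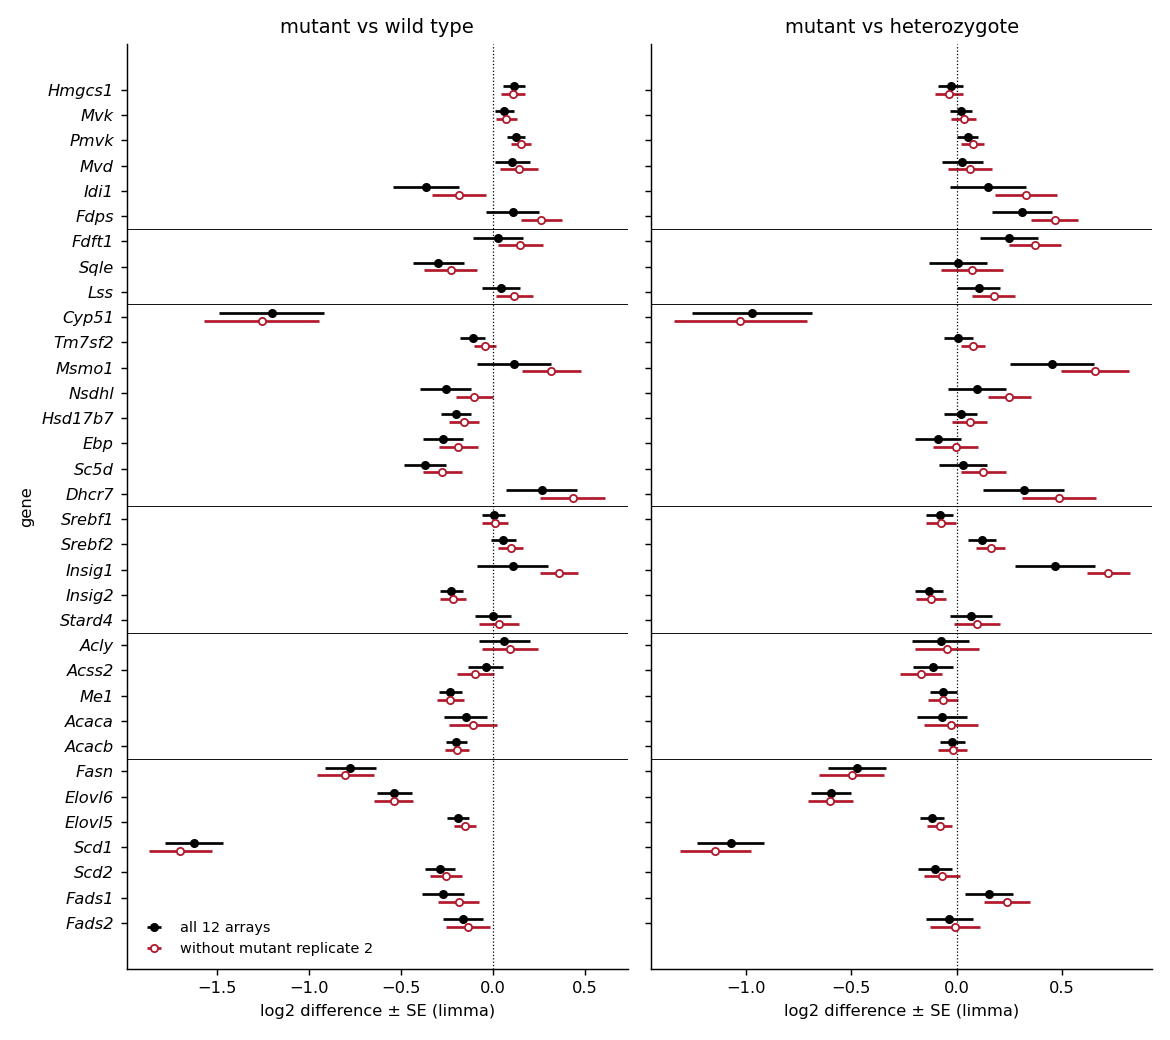
Log2 difference ± SE from limma for each of the 34 genes, mutant against wild type (left) and mutant against heterozygote (right), with all 12 arrays (filled points) and without mutant replicate 2 (open points). The mutant arrays enter both panels. Leaving out mutant replicate 2 moves most sterol genes and Insig1 to the right, while Scd1, Fasn, Elovl6 and Cyp51 stay on the left.

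The third comparison asked what the loss of 1 copy of Mut did. No member was called between heterozygotes and wild type by limma, where 27 genes (0.135%) were called in all. At an unadjusted p under 0.05, 11 members were lower and 1 higher, against 6.81% and 4.5% of all genes. In 11 members every heterozygote lay below every wild-type mouse, against 5.26% of all genes. These were the sterol genes Cyp51, Nsdhl, Hsd17b7, Ebp and Sc5d, the regulator Insig1, and the fatty acid genes Me1, Acacb, Scd1, Fads1 and Fads2. Hmgcs1 alone lay wholly above, against 3.18% of all genes.

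In this comparison 26 of the 34 genes lay below the wild type, against 47% of all genes, with medians of -0.20 for the sterol genes and -0.15 for the fatty acid genes, and 0.0065 over all genes. The 8 genes from lanosterol to cholesterol were all below 0, with a median of -0.23. Scd1 was 1.47-fold lower (adjusted p = 0.219), Fads1 1.34-fold lower (adjusted p = 0.188) and Sc5d 1.32-fold lower (adjusted p = 0.217). Without mutant replicate 3, which enters only through the shared estimate of the spread, Scd1 and Fads1 were called (adjusted p = 0.0349 and 0.0208, limma), against 0.171% of all genes lower. Elovl6, low in the mutants, differed by 0.06 (adjusted p = 0.861).

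Ordered by their means, the heterozygotes lay between a lower mutant and a higher wild-type mean in 8 of 12 fatty acid genes and in 2 of 17 sterol genes, Cyp51 and Ebp, against 22.9% of all genes. The heterozygotes had the lowest mean in 11 of 17 sterol genes, against 24.1% of all genes, and in 1 of 12 fatty acid genes, Fads1.

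A further 39 genes of the same pathways were listed, of which 29 were measured. In mutant against wild type 4 of the 29 were lower and none higher, against 6.69% and 2.96% of all genes, with a median of -0.12. Of 15 fatty acid partners 3 fell: Elovl1, an elongase of very long chains (1.32-fold, adjusted p = 0.00418, limma), Cyb5a, the cytochrome b5 that passes electrons to desaturases (1.15-fold, adjusted p = 0.0233), and Slc25a1, the mitochondrial citrate carrier (1.17-fold, adjusted p = 0.0254). With mutant replicate 2 left out, Slc25a1 missed the threshold (adjusted p = 0.0633). Of 9 genes of sterol transport, storage and the LXR receptors 1 fell, Lpcat3, which puts polyunsaturated chains into phospholipids (1.23-fold, adjusted p = 0.0182). Of 5 further genes of sterol synthesis and SREBP processing 0 were called against the wild type, with 3 lower at an unadjusted p under 0.05. Against the heterozygotes Aacs, which makes acetoacetyl-CoA from ketone bodies, was the only one of the 29 called (1.3-fold lower, adjusted p = 0.0407), and without mutant replicate 3 it was not (adjusted p = 0.089).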

How the data were processed

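Total RNA of whole kidney was labelled and hybridised to Affymetrix mouse gene 1.0 ST arrays, as the sample descriptions name them, 1 array for each of 12 mice. The submitters' processing notes name RMA and Affymetrix Expression Console 1.2.1 for the log2 values that the authors deposited. Background subtraction and array equalisation in that method compress differences of dim probe sets. The platform annotation gave the gene symbols. Of 35552 probe sets, 21785 had 1 symbol, which gave 19934 genes, each by its brightest probe set.

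Groups and replicate numbers came from the sample titles. The 3 genotypes were fitted together in R 4.3.3 with limma 3.58.1 (lmFit, eBayes; 9 residual degrees of freedom), Benjamini-Hochberg over all genes, checked on simulated data. The series' design text gives 4 mice per genotype, so p-values measure the spread between mice. The number of arrays limits the precision, and whole-transcript arrays give no read depth. Two-sided exact permutation tests over arrays were added for genes called in mutant against wild type. Members with 2 probe sets (Idi1, Fdft1, Me1 and Acaca) had the same direction in both.

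The members, lists and alternatives were chosen with earlier results of these data known. Values on every array are given for members called in any comparison and for the member with the smallest p of a branch with fewer than 2 called. Paralogs of called members are given beside them, Elovl5 by its range in the mutants and the wild type only. Other members are given by range and count, and other pathway genes are named where called against either group. Fads1, Fads2, Dhcr7, Acly, Acss2, Msmo1 and Idi1 were given array values after those were seen. Alternatives were the replicate block, each array left out, a minimum group mean of 6, averaging of probe sets within a gene, weights per array, a robust prior with a trend, only the groups compared, and quantile normalisation. Leaving out mutant replicates 2 and 3, wild type replicates 1 and 4, or mutant replicate 3 with wild type replicates 1 and 4 was chosen after seeing the data. Promoter windows were RefSeq's, of GRCm38.p6. Tables and figures were made with Python 3.11.15, pandas 2.3.3 and matplotlib 3.10.9.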

Additional observations from a re-analysis of the deposited data

Results flagged for a closer look

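In each genotype group of 4 arrays, the gap of the highest or lowest array to its neighbour was set against the whole range of the group, and 4 of 102 tests passed Dixon's critical value. Chance alone passes about 1 in 20. Dhcr7 in wild type replicate 2 stood at 8.35 (8.3545 unrounded), above 8.19 to 8.21 in the other wild-type mice. Insig1 in wild type replicate 1 stood at 9.59, below 9.83 to 9.86 in the others. Acss2 in mutant replicate 3, the array with high adrenal markers, stood at 9.58, below 10.07 to 10.14 in the other mutants. Scd2 in wild type replicate 4 stood at 10.73, below 10.82 to 10.83 in the others.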

How the results depend on the processing

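Scd1, against both other groups, and Elovl6 against the heterozygotes were called under all 22 alternatives, and no called difference reversed. The calls near 1.2-fold in mutant against wild type (Scd2, Me1 and Insig2) were the least stable. Replicate numbers gave no sign of pairing the mice. Deviations of same-numbered arrays correlated between -0.24 and 0.17 over 12 pairs, and those of different-numbered arrays between -0.20 and 0.26. Arrays did not all correlate best with their own number. With 4 arrays a group, this check cannot exclude pairing. With the replicate block 4 members were called in mutant against wild type (7.79% of all genes), 3 against the heterozygotes (2.03%) and 0 in heterozygote against wild type (0.0351%). The cause of the shifts below was not tested. In mutant against wild type 4 members were called when only those 2 groups were fitted, 1 without wild type replicates 1 and 4, and 4 when mutant replicate 3 was left out as well, where fewer arrays remain. Leaving out 1 array at a time gave 3 to 11 called members in mutant against wild type, 2 to 4 in mutant against heterozygote and 0 to 2 in heterozygote against wild type. Without mutant replicates 2 and 3, 7 members were called against the heterozygotes (3 lower, and 4 higher: Insig1, Fdft1, Msmo1 and Stard4; 0.868% and 0.918% of all genes) and 2 in heterozygote against wild type (0.421% of all genes). Array weights and the fit of only those 2 groups also gave 2 in heterozygote against wild type, Scd1 and Fads1. The fatty acid median in mutant against wild type was -0.16 after quantile normalisation, -0.31 without mutant replicates 2 and 3 and -0.30 without mutant replicate 3 and wild type replicates 1 and 4. It ran from -0.30 to -0.18 with 1 array left out. In heterozygote against wild type it was -0.096 after quantile normalisation and -0.17 to -0.12 with 1 array left out. Against the heterozygotes the fatty acid median was -0.16 in both settings that left out several arrays with mutant replicate 3, and -0.16 to -0.0595 with 1 array left out. The sterol median against the heterozygotes was 0.17 without mutant replicates 2 and 3, and -0.031 to 0.077 with 1 array left out. With 1 array left out it ran from -0.12 to 0.073 in mutant against wild type and from -0.22 to -0.16 in heterozygote against wild type. Under quantile normalisation the small differences of Acss2 and Stard4 in mutant against wild type changed sign, to 0.017 and 0.024.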
